A study of Rattus norvegicus with 6 samples.

Results

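The genes described here encode mitochondrial ribosomal proteins and were taken from the deposited rat gene table by their names, which are Mrpl or Mrps followed by a number and, in some, a letter. This naming rule picked 76 entries with 73 different symbols out of 30957 genes, 46 named for the large ribosomal subunit (Mrpl) and 30 for the small one (Mrps). The study sequenced ribosomal-RNA-depleted total RNA of flexor digitorum longus, a hind limb muscle, from wild-type Sprague-Dawley rats. It compared 3 control libraries at 0 h (control 1 to 3) with 3 libraries at 18 h of acute compartment syndrome, ACS (ACS 1 to 3). ACS, in which pressure inside a closed muscle compartment cuts off its blood supply, was induced by tying a low-elastic band around the skin at the knee, per the labels. The treatment field reads ACS for all 6 libraries, so titles gave the groups, and neither age nor sex of the rats is given in the sources used here. The labels do not say whether each library is a rat of its own. The p-values below therefore describe only how these libraries spread, which may be technical.

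Mitochondria carry their own ribosomes, which translate the few mRNAs of the mitochondrial chromosome into membrane subunits of the respiratory chain and the ATP synthase. All proteins of these ribosomes are encoded in the nucleus, made on cytosolic ribosomes and imported, whereas their ribosomal RNAs are transcribed inside the organelle. The small subunit binds the mRNA and decodes it, and the large subunit forms the peptide bonds and passes the nascent chain to the inner membrane. Some of the proteins have bacterial counterparts and others were added during mitochondrial evolution. Skeletal muscle is rich in mitochondria, most of all in slow and oxidative fibres.

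Names and location differ for a few of the genes. Mrps18a and Mrps30 are named for the small subunit but sit in the large one, and Mrps36 is a component of the 2-oxoglutarate dehydrogenase complex and not of the ribosome. Some ribosomal proteins fell outside the naming rule, such as Dap3, Mrpl58 (listed under its older name Ict1) and the entries spelled mrpl9, mrpl11 and mrpl24 in lower case. Their values are given separately. The muscle label was checked with fast-fibre markers, of which 7 of 8 were matched, and all 7 had counts. Their summed level was 128299 to 148739 CPM in control muscle and 84848, 116789 and 206378 CPM in ACS 1, 2 and 3. CPM stands for counts of a gene scaled to a common library size, here with TMM normalization factors from edgeR.

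The sequence in front of the start is shown for Mrpl41 and Mrps2, which had the highest estimates of their subunits in ACS muscle, and for Mrpl17, which had the second highest control level and holds motifs of known mitochondrial regulators. Nuclear respiratory factor 1 (NRF-1), the ETS-family factor GABP and YY1 are known activators of nuclear genes for mitochondrial proteins. Sequences are from RefSeq on the build GRCr8, which is not the build of the deposited table. Capitals mark matches to the motifs searched, on both strands: GCGCA followed by any base and GCGC for NRF-1, CCGGAAG for the ETS core, AANATGGCG for YY1, GGGCGG for the GC box and TATAAA for the TATA box. The first 3 are the 250 bases before the start, read along the gene.
Mrpl41: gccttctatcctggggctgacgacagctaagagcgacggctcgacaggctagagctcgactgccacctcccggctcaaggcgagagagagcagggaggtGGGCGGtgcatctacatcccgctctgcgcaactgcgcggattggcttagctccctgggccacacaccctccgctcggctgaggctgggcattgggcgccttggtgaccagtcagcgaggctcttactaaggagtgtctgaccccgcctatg
Mrps2: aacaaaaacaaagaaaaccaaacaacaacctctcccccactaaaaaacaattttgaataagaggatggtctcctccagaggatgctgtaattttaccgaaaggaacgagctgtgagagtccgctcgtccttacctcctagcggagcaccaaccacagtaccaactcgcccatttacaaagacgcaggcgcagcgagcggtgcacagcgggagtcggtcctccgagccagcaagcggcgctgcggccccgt
Mrpl17: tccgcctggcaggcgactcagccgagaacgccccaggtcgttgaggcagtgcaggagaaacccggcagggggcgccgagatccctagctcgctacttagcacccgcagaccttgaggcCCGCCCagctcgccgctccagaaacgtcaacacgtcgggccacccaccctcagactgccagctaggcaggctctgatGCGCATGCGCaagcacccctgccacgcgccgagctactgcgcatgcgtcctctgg
Mrpl41 is at chr3:28179756-28180005, minus strand, Mrps2 at chr3:32200827-32201076, plus strand, and Mrpl17 at chr1:169575700-169575949, minus strand. The Mrpl41 stretch holds 1 GC box, the Mrpl17 stretch a palindromic NRF-1 match and a GC box, and the Mrps2 stretch none of the 5 motifs. Neither Mrpl41 nor Mrps2 holds an NRF-1, ETS or YY1 match anywhere in its window.

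A property of sequence shared by many of the genes, which the naming rule did not use, was the content of the 300-base promoter window, which runs from 250 bases before to 50 after the start. Windows were found for 58 of 73 symbols (60 windows, since 2 symbols have 2). An NRF-1, ETS or YY1 match was present in 31 of the 60 windows (51.7%), against 14.3% of all 33469 windows and 17.8% of those of protein-coding genes. Each motif contributed: NRF-1 was in 8 windows (13.3%, against 4.25% of all), the ETS core in 19 (31.7%, against 8.75%) and YY1 in 12 of the 60 (against 3.01% of all). Among protein-coding windows the shares were 5.67% for NRF-1, 10.7% for the ETS core and 3.67% for YY1. The GC box was in 48.3% against 33.1% of all and 41.8% of protein-coding windows, and the TATA box in 13.3% against 14.2%, both nearer to the background. These shares are descriptions of letters in a window, and a match is not a site shown to be bound.

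YY1 matches lay in a narrow stretch. In 11 of the 12 windows the match was on the sense strand and began 0 to 30 bases after the start, which held for 18.3% of the members' windows against 0.935% of all and 1.29% of protein-coding windows. Of all protein-coding windows with a YY1 match, 35.0% had it there. The 11 matches are shown with 10 bases before and 11 after, so that the shared run can be compared, and capitals mark the YY1 match.
Mrpl46: ggaagacggaAAGATGGCGgcgcccatagg
Mrps27: ggtacgctccAAGATGGCGgcccccatggt
Mrps30: gcggaggacaAAGATGGCGgctgccaggta
Mrpl50: gagcttgtcgAAGATGGCGgcgctgtgtgt
Mrpl37: tgcccgggcaAAGATGGCGgcgtccaggta
Mrpl42: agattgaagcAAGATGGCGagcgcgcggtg
Mrps10: tcagggcaccAAGATGGCGgcgcgcgcagc
Mrps18a: gtgtgttcccAAGATGGCGgccctcagggc
Mrpl27: atgtgaagcaAACATGGCGtcggcggcggc
Mrps14: ctaggcagacAACATGGCGgcgtccttgct
Mrpl1: cggaacagtcAACATGGCGgcggccgcaag
Of these genes, Mrpl46, Mrpl50, Mrpl37, Mrpl42, Mrpl27 and Mrpl1 are named for the large subunit and Mrps27, Mrps30, Mrps10, Mrps18a and Mrps14 for the small. Each match contains ATG, and whether it is the start codon was not checked. On GRCr8, with the strand in brackets, the stretches are Mrpl46 at chr1:142116987-142117016 (minus), Mrps27 at chr2:32474223-32474252 (plus), Mrps30 at chr2:52195867-52195896 (minus) and Mrpl50 at chr5:68668042-68668071 (minus). Further ones are Mrpl37 at chr5:127074942-127074971 (minus), Mrpl42 at chr7:32028484-32028513 (minus), Mrps10 at chr9:21122404-21122433 (minus) and Mrps18a at chr9:22367361-22367390 (minus). The others are Mrpl27 at chr10:80092337-80092366 (plus), Mrps14 at chr13:74962607-74962636 (plus) and Mrpl1 at chr14:13663488-13663517 (minus).

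**Figure D1:**
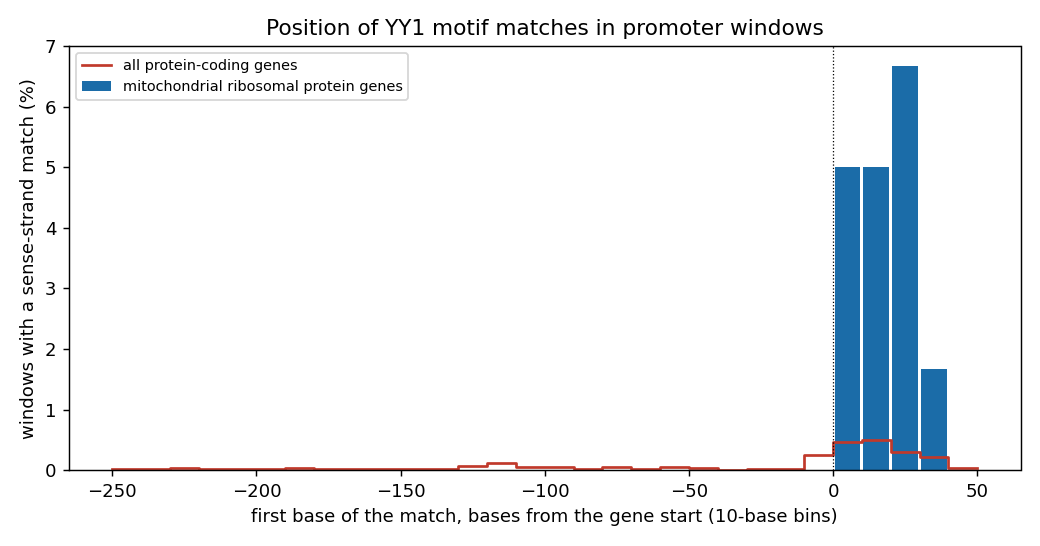
Share of promoter windows with a sense-strand YY1 match (AANATGGCG) in 10-base bins by distance of its first base from the gene start, for the 60 member windows (bars) and all protein-coding windows (line). The member matches all begin 0 to 30 bases after the start, and the line does not pass 0.494% in any bin.

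Library totals lay between 14340865 and 21003928 counts, and ACS 1 stood apart from the rest. In ACS 1, 43.4% of counts came from the mitochondrial chromosome, against 4.82% and 5.33% in ACS 2 and 3 and 7.52% to 8.60% in control libraries. Neutrophil markers (6 of 6 matched) summed to 362, 24.9 and 80.4 CPM in ACS 1, 2 and 3 and to 1.45 to 5.95 CPM in control muscle. Macrophage markers (5 of 5) summed to 142, 40.7 and 21.8 CPM against 17.8 to 31.5 CPM. Fibroblast markers (5 of 5 matched, with Col1a2 at 0 in every library) summed to 1529, 1823 and 1910 CPM against 386 to 662 CPM. Red-cell markers (2 of 3) summed to 148, 28.0 and 102 CPM against 5.71 to 24.2 CPM, endothelial markers (3 of 4) to 408, 182 and 122 CPM against 166 to 237 CPM, and slow-fibre markers (4 of 4) to 1298, 2028 and 1142 CPM against 2206 to 2741 CPM. The part of these shifts in the values below was not tested. In whole muscle, fewer cells of a type and less RNA per cell cannot be told apart.

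In control muscle nearly all of the genes were expressed at moderate levels. Of the 76 entries, 70 passed the low-count filter and were tested, 41 named for the large subunit and 29 for the small. Their mean control level had a median of 18.5 FPKM (reads scaled by gene length and library size), against 5.17 FPKM over all 12873 tested genes, and 68 of the 70 lay above that all-gene median. The range ran from 2.80 FPKM for Mrps2 to 82.6 ± 16.7 FPKM (SD, n = 3) for Mrpl54. Large-subunit genes had a median of 23.6 FPKM and small-subunit genes 16.1 FPKM.

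The 6 highest in control FPKM were Mrpl54, Mrpl17 (60.1 ± 2.89), Mrpl12 (48.2 ± 6.90), Mrpl27 (42.7 ± 6.23), Mrps18a (41.1 ± 4.81) and Mrps7 (38.6 ± 2.97), all SD with n = 3. The neighbours Mrpl27, Mrps18a and Mrps7 in this order differed by less than their SDs. Mrpl12, the counterpart of the bacterial stalk protein L7/L12, also binds the mitochondrial RNA polymerase. Mrps7 belongs to the head of the small subunit, as its bacterial counterpart does.

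Entries left out of the test were few and low. Both entries of Mrpl36, both entries of Mrpl53, and Mrpl30 had 0 counts in all 6 libraries, where a floor of 3 counts in the combined 110932780 would be 0.0270 CPM. The Mrpl36 and Mrpl53 entries are paired copies on chr1 and chr4, so reads that match both places could have been lost in counting and their absence is uncertain. The copy of Mrps36 on chr9 had 5, 3 and 17 counts in control libraries and 0, 3 and 11 in ACS libraries, against 127 to 1088 counts for the Mrps36 gene on chr2. Of all entries, 7 overlap a gene on the opposite strand with over 100 counts, namely Mrpl13, Mrpl21, Mrpl30, Mrpl43, Mrpl47, Mrpl49 and Mrps7. Because the strand setting of the counting is not given, reads of these genes and of their partners may not be told apart.

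**Figure D2:**
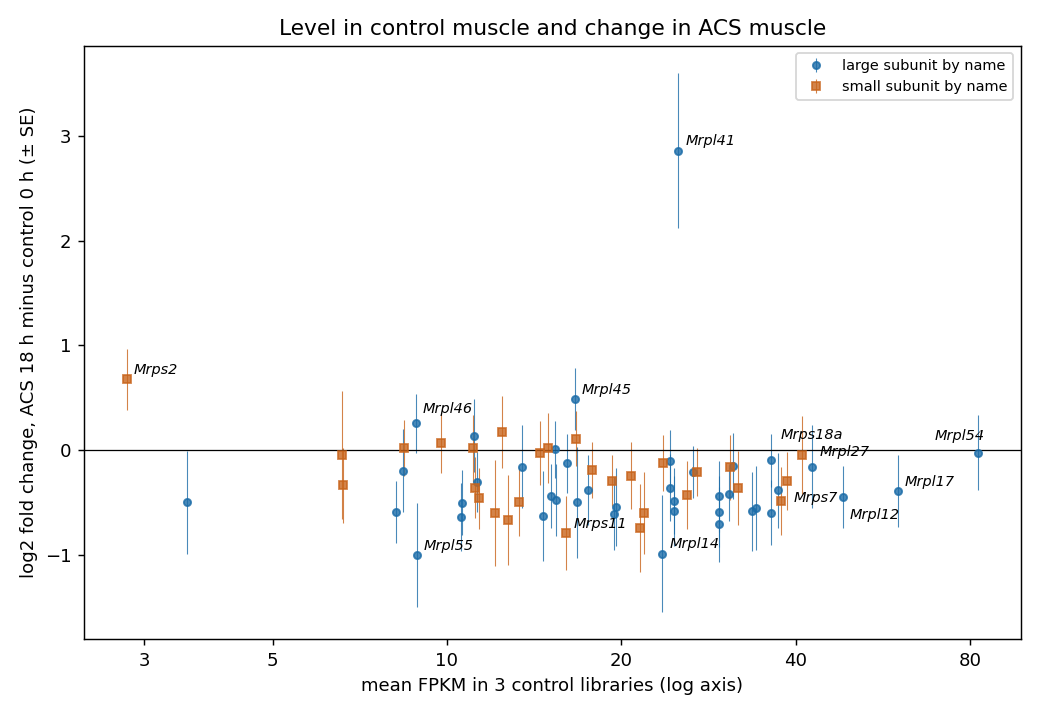
Mean control level (FPKM, log axis) of the 70 tested mitochondrial ribosomal protein genes against their log2 fold change, ACS 18 h minus control 0 h, with bars of 1 SE from edgeR. Circles are genes named for the large subunit and squares those named for the small, and 58 of the 70 points lie below 0, with Mrpl41 alone far above.

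The comparison asks whether transcripts of the mitochondrial ribosome differ between control muscle at 0 h and ACS muscle at 18 h. All controls are from 0 h and all ACS libraries from 18 h, so the syndrome and elapsed time cannot be told apart. No gene of the set passed the test in either direction, while most estimates lay a little below control: 58 of 70 log2 fold changes were below 0, with a median of -0.36 and quartiles of -0.53 and -0.11. Over all tested genes 50.7% were below 0 and the median was -0.01. With edgeR's quasi-likelihood test and Benjamini-Hochberg adjustment over all tested genes, 0 genes were higher and 0 lower at 0.05, where 3.43% of all tested genes were higher and 0.707% lower (4.14% in either direction). At an unadjusted p under 0.05 there were 2, Mrpl41 and Mrps2, both higher, which 15.5% of all genes were at that level. On the lower side there were 0, against 1027 of all 12873 tested genes. With other tools, limma-voom called 0 in either direction, where 2.59% of all genes were called, and had 3 of 70 at an unadjusted p under 0.05, against 22.8% of all genes. The fit of limma on log2(FPKM + 1) also called 0, where 4.68% of all genes were called, and had 20 of 70 at an unadjusted p under 0.05, against 26.5% of all genes. Mrpl41 was the 1 gene called, as higher, by DESeq2 (8.97% of all genes were higher), by limma-voom with quality weights (8.23%), by edgeR with no filter (4.02%) and by edgeR without control 3 and ACS 3 (1.31%).

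The differences were also small in size. Log2 fold changes ran from -1.002 for Mrpl55 to 2.86 for Mrpl41, and 68 of 70 lay within 1 of no change, where 21.4% of all tested genes lay further out than that. Groups did not overlap for 9 genes that were lower in every ACS library (12.9% of 70, against 14.8% of all tested genes) and for 2 that were higher (2.86%, against 16.7%). The 9 were Mrpl10, Mrpl28, Mrpl38, Mrpl39, Mrps5, Mrps6, Mrps11, Mrps16 and Mrps18c, and the 2 were Mrpl45 and Mrps2. The share of non-overlapping genes was thus near the background on the lower side and under it on the higher side. Variation between ACS libraries was wider than between controls, with a median coefficient of variation of 37.7% against 13.6% over the 70 genes, and 35.6% against 17.5% over all tested genes.

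The ACS libraries differed among themselves in these genes. In ACS 1, 53 of the 70 lay below every control library, in ACS 2 it was 51, and in ACS 3 it was 11. The same count over all tested genes gave 43.1%, 36.4% and 32.7%. The median over the 70 genes of log2 CPM minus its control mean was -0.93 in ACS 1, -0.39 in ACS 2 and 0.03 in ACS 3, and -0.02, 0.05 and 0.01 in the control libraries. Together the genes held 0.180%, 0.193% and 0.190% of counts in the control libraries and 0.0841%, 0.157% and 0.166% in the ACS libraries. Outside mitochondrial-chromosome and haemoglobin reads the shares were 0.197%, 0.211% and 0.206% against 0.152%, 0.166% and 0.177%, so all 3 ACS libraries lay below all 3 controls on this measure.

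Leaving out ACS 1 moved the median log2 fold change of the genes to -0.16, with 50 of 71 tested below 0. Leaving out ACS 3 moved it to -0.65, and then 3 genes passed as lower (Mrpl48 at -1.03, adjusted p = 0.0433; Mrpl18 at -1.48, adjusted p = 0.0271; Mrps36 at -1.45, adjusted p = 0.0413, all edgeR), where 3.01% of all genes did, and Mrpl41 as higher, where 9.72% did. ACS 1 is also the library with most mitochondrial-chromosome and neutrophil counts. ACS 3 held the most fast-fibre signal. How far either feature bears on the genes was not tested.

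**Figure D3:**
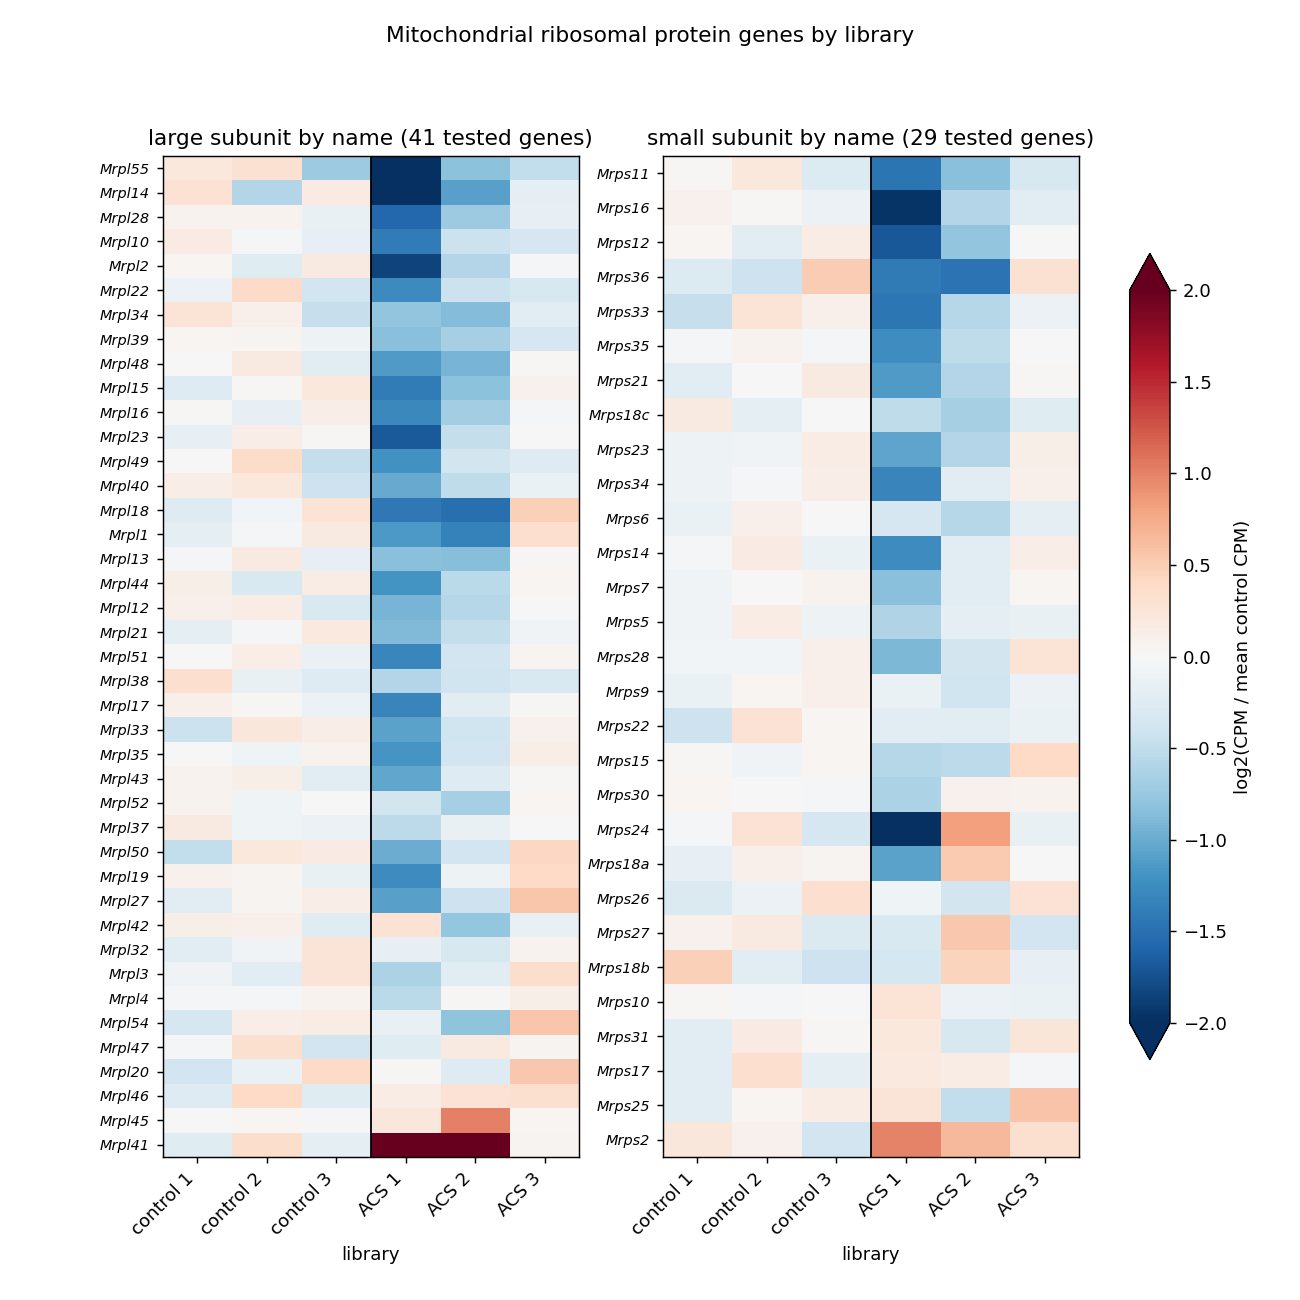
Log2 of CPM over the mean control CPM for the 70 tested genes (one line each, ordered by fold change within each panel) in the 6 libraries, with the colour scale held within 2 of 0. Blue is below and red above the control mean: 53 and 51 genes lie below every control in ACS 1 and ACS 2 and 11 in ACS 3, and the darkest red is Mrpl41 in ACS 1 and ACS 2.

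Mrpl41 stood apart from the other large-subunit genes. It encodes a protein added to the large subunit during mitochondrial evolution, which has also been described as a binding partner of Bcl-2. Its level was 13.4, 20.2 and 13.8 CPM in the control libraries and 124, 203 and 16.4 CPM in ACS 1, 2 and 3. ACS 1 and 2 were thus far above every control library, and ACS 3 lay within the control range. The means were 15.8 ± 3.80 CPM and 115 ± 93.7 CPM (SD, n = 3). The log2 fold change was 2.86 ± 0.74 (SE, edgeR; adjusted p = 0.0640). An exact permutation test of the 3 against 3 libraries gave p = 0.2 (two-sided), where 0.1 is the smallest value it can give.

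The call on Mrpl41 depended on the libraries and tools used. Without ACS 3 the log2 fold change was 3.37 (adjusted p = 0.00349, edgeR), and without ACS 2 it was 2.10 (adjusted p = 0.150). DESeq2 gave 2.84 (adjusted p = 0.000676), and over its 18 alternatives 5 passed the threshold, with adjusted p from 0.000676 to 0.235. The gene lies at chr3:2181045-2181962 on the minus strand of Rnor 6.0 and overlaps no other gene of the table. Its nearest neighbours are Dph7, 2034 bases away on the plus strand, with 19 to 67 counts per library, and LOC100911867, 994 bases away on the plus strand. LOC100911867 was at 40.7, 43.0 and 123.4 CPM in control and 83.4, 212 and 93.6 CPM in ACS libraries (log2 fold change 0.91, adjusted p = 0.329).

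Mrps2 and Mrpl45 were the members whose groups did not overlap on the higher side. Mrps2, a small-subunit protein with a bacterial counterpart, was at 17.6, 16.0 and 11.6 CPM in control and 30.04, 23.6 and 18.8 CPM in ACS libraries. Its lowest ACS library was just above the highest control, with a log2 fold change of 0.68 ± 0.29 (SE, edgeR; adjusted p = 0.201; exact permutation p = 0.1). The Mrps2 locus overlaps another gene of the table, so some reads may not be told apart. Mrpl45, which lies near the exit of the large subunit where it faces the inner membrane, was at 32.5, 33.5 and 32.1 CPM in control and 38.3, 65.5 and 33.5 CPM in ACS libraries. Only ACS 2 was far above control, and ACS 3 (33.54 CPM) was almost level with control 2 (33.52 CPM). The log2 fold change was 0.49 ± 0.30 (SE, edgeR; adjusted p = 0.359), or 0.10 without ACS 2.

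The other 9 estimates above 0 were smaller. In the large subunit, Mrpl46 had a log2 fold change of 0.25 ± 0.28 (SE), Mrpl20 0.14 and Mrpl47 0.01, and in the small subunit Mrps25 had 0.17, Mrps17 0.11, Mrps31 0.06, and Mrps10, Mrps18b and Mrps27 0.02 each. None of these 9 was separated from control, and all 9 turned below 0 when counts were scaled by library totals alone. That scaling moved the median of all tested genes to -0.32 and of the 70 genes to -0.64, with 67 of 70 below 0, so the distance between the medians stayed at -0.32, against -0.35 with TMM.

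On the lower side, the 5 largest estimates in the large subunit were those of Mrpl55, Mrpl14, Mrpl28, Mrpl10 and Mrpl2. Mrpl55 was at 8.73, 9.29 and 4.54 CPM in control and 1.497, 4.27 and 5.36 CPM in ACS libraries, and the groups overlapped through control 3. Its log2 fold change was -1.002 ± 0.50 (SE, edgeR; adjusted p = 0.261). Mrpl14, whose bacterial counterpart lies at the face where the subunits join, was at 22.7, 12.3 and 20.8 CPM in control and 2.71, 8.75 and 16.5 CPM in ACS libraries. The groups overlapped, and the log2 fold change of -0.99 ± 0.56 (SE, edgeR; adjusted p = 0.318) was -0.56 without ACS 1 and -1.68 without ACS 3.

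Mrpl28 was at 21.3, 21.5 and 18.3 CPM in control and 6.83, 12.3 and 18.2 CPM in ACS libraries, so ACS 1 and 2 were low and ACS 3 lay just under the lowest control. Mrpl10, the counterpart of the bacterial protein that anchors the L7/L12 stalk, was at 21.3, 18.7 and 16.8 CPM against 7.21, 14.0 and 14.96 CPM. Their log2 fold changes were -0.71 ± 0.36 and -0.64 ± 0.32 (SE, edgeR; adjusted p = 0.270 for each). Mrpl2, a core protein near the site of peptide bond formation in its bacterial counterpart, was at 14.1, 11.7 and 15.6 CPM against 3.84, 9.16 and 13.6 CPM and overlapped (log2 fold change -0.63, adjusted p = 0.411).

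In the small subunit, Mrps11, Mrps16, Mrps12, Mrps36 and Mrps33 had the lowest estimates. Mrps11, a protein of the platform of the small subunit, was at 13.0, 14.8 and 10.6 CPM in control and 4.68, 7.15 and 10.3 CPM in ACS libraries. The groups did not overlap, though ACS 3 and control 3 were close, and the log2 fold change was -0.79 ± 0.35 (SE, edgeR; adjusted p = 0.214). Mrps16 was at 12.4, 11.8 and 10.8 CPM against 2.99, 7.77 and 9.99 CPM, again without overlap (log2 fold change -0.74 ± 0.42, adjusted p = 0.317).

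Mrps12, the counterpart of the bacterial decoding-centre protein S12, was at 8.44, 7.01 and 9.09 CPM in control and 2.53, 4.73 and 8.09 CPM in ACS libraries. It overlapped through ACS 3 (log2 fold change -0.67, adjusted p = 0.379). Mrps33 was at 8.29, 13.7 and 12.2 CPM against 4.21, 7.72 and 10.55 CPM (log2 fold change -0.60, adjusted p = 0.386). The chr2 entry of Mrps36, the dehydrogenase component, was at 26.0, 23.7 and 44.9 CPM against 11.9, 11.4 and 38.9 CPM. Control 3 and ACS 3 were both high for Mrps36, and the log2 fold change was -0.60 ± 0.51 (SE, edgeR; adjusted p = 0.504).

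Mrpl46 and Mrps11 lie head to head on chr1, 71 bases apart in the deposited loci (chr1:140469280-140477796 on the minus strand and chr1:140477868-140487248 on the plus strand, Rnor 6.0). The RefSeq starts are 233 bases apart, and the stretch between them, read along Mrps11, is shown because the estimates of the neighbours differ in sign with TMM scaling (with library totals Mrpl46 is at -0.05).
Mrpl46 to Mrps11: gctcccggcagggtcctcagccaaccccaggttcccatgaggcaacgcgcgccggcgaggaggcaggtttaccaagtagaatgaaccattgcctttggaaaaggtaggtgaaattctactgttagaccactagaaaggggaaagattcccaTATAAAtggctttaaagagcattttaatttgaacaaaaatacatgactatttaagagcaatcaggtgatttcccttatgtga
It lies at chr1:142117031-142117263, plus strand, on GRCr8, and the capitals are a TATAAA match, the only one of the 5 motifs in it. Mrpl46 was at 10.5, 16.4 and 10.5 CPM in control and 13.8, 15.3 and 15.6 CPM in ACS libraries, while Mrps11, described above, was lower in every ACS library. Their log2 fold changes of 0.25 and -0.79 were each short of the threshold, and the difference between them was not tested.

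**Figure D4:**
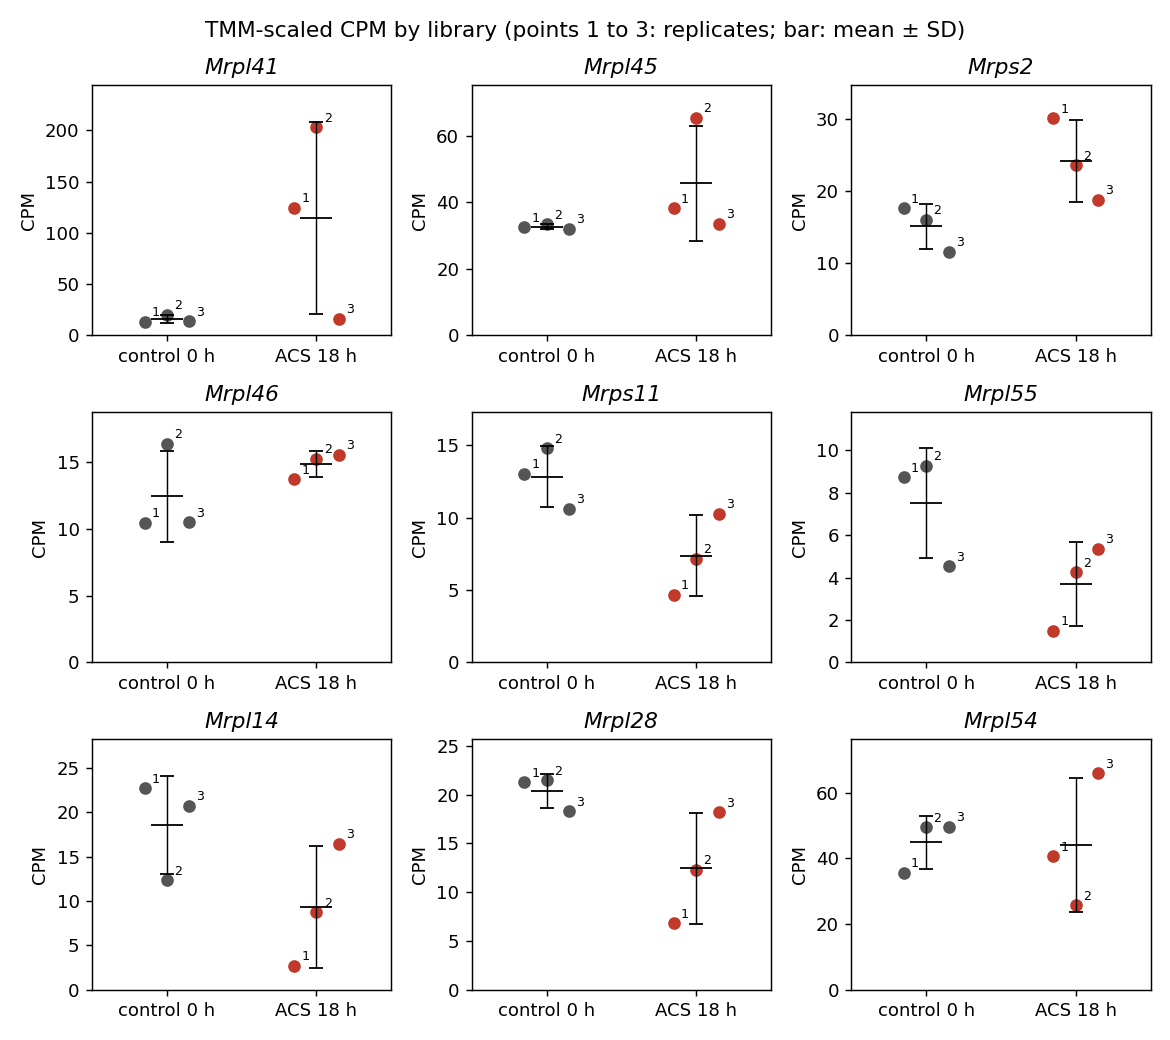
TMM-scaled CPM of 9 mitochondrial ribosomal protein genes in control 0 h and ACS 18 h libraries (points numbered by replicate, with each axis starting at 0), with the mean and SD of 3 libraries as bars. Mrpl41 is at 124 and 203 CPM in ACS 1 and ACS 2 and at 16.4 CPM in ACS 3, and in Mrpl28 and Mrps11 the ACS 3 point lies close to control 3.

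The genes with the highest control levels overlapped with control. Mrpl54 was at 35.6, 49.5 and 49.6 CPM in control and 40.7, 25.7 and 66.0 CPM in ACS libraries (log2 fold change -0.03). Mrpl17 was at 53.6, 50.9 and 46.1 CPM against 20.1, 43.2 and 51.2 CPM (log2 fold change -0.39), and Mrpl12 at 72.7, 74.8 and 54.8 CPM against 35.4, 45.6 and 67.1 CPM (log2 fold change -0.45). In Mrpl17 and Mrpl12 only ACS 1 and 2 lay below control. The estimates for Mrpl27 and Mrps7 were -0.16 and -0.29.

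The 3 Mrps18 paralogues, which share an ancestor in bacterial S18, occupy different places. Mrps18a (large subunit) was at 29.3, 35.1 and 34.2 CPM in control and 15.7, 47.0 and 32.5 CPM in ACS libraries, and Mrps18b (small subunit) at 61.4, 37.5 and 33.0 CPM against 34.5, 60.05 and 39.2 CPM. Both overlapped with control, with log2 fold changes of -0.05 (adjusted p = 0.954) and 0.02 (adjusted p = 0.979). Mrps18c, the paralogue placed like bacterial S18 in the small subunit, was at 9.26, 7.25 and 8.14 CPM against 5.80, 5.20 and 6.92 CPM, lower in all 3 ACS libraries with a log2 fold change of -0.46 (adjusted p = 0.378). Differences between the paralogues in response were not tested.

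The large and small subunits were compared next. Large-subunit genes had a median log2 fold change of -0.44, with 36 of 41 below 0, and small-subunit genes -0.24, with 22 of 29 below 0. Groups did not overlap on the lower side for 4 large-subunit genes (9.76%) and 5 small-subunit genes (17.2%), near the 14.8% of all tested genes. On the higher side it was 1 of each (2.44% and 3.45%), against 16.7% of all tested genes. With genes assigned by where the protein sits instead of by name, the medians were -0.42 over 43 and -0.27 over 26 genes. In ACS 1, 2 and 3 the large-subunit median lay at -1.02, -0.42 and 0.03 and the small-subunit median at -0.64, -0.34 and -0.01, so ACS 1 was the library where the subunits were furthest apart. The gap of -0.20 between the subunit medians of log2 fold change was -0.15 without ACS 1, -0.0778 without ACS 2, -0.26 without ACS 3 and -0.0887 without control 1.

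Summed counts gave no such gap. The log2 ratio of large- over small-subunit counts was 0.64, 0.63 and 0.55 in control and 0.64, 0.71 and 0.63 in ACS libraries. The means of 0.61 ± 0.05 and 0.66 ± 0.05 (SD, n = 3) differed by 0.05, about as much as replicates did. The difference was -0.0776 from the mean of log2 CPM over the genes, and 0.204 from summed FPKM, so neither its sign nor its size held across these measures. For summed counts Mrpl41 also set the sign: without it the ratios were 0.62, 0.60 and 0.53 in control and 0.35, 0.38 and 0.60 in ACS libraries, a difference of -0.14. In ACS 1 and 2 the ratio without Mrpl41 lay below all controls, and in ACS 3 it lay within their range.

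Origin gave another grouping. Genes assigned a bacterial counterpart had a median log2 fold change of -0.39, with 35 of 40 below 0. Those assigned as specific to mitochondria had -0.21, with 22 of 29 below 0. The latter include Mrps18a (-0.05) and Mrps18b (0.02), although these share an ancestor in bacterial S18. They also include Mrpl55 (-1.002), whose assignment is uncertain. Counting any of these with the bacterial group was not tried. Within the large subunit (by structure) the medians were -0.47 over 24 and -0.31 over 19 genes, and within the small subunit -0.29 over 16 and -0.11 over 10 genes. No test was made between these groups, whose quartiles overlapped: -0.58 to -0.16 for bacterial and -0.48 to -0.03 for mitochondrial origin.

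The 5 promoter motifs searched gave a last grouping. Genes with a YY1 match had a median log2 fold change of -0.15 (11 genes) and those with a window but no match -0.41 (44 genes). For the ETS core the medians were -0.10 (16) and -0.39 (39), and for NRF-1 -0.13 (7) and -0.32 (48). The TATA box gave -0.24 (8) and -0.31 (47). For the GC box the order was the other way, with -0.34 (27) and -0.25 (28). Each is a description, with overlapping genes between motifs, and no test was made.

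Ribosomal proteins outside the naming rule looked alike in sign. Of 11 entries 10 were matched and tested, 0 passed with edgeR, 1 had an unadjusted p under 0.05, and 9 lay below 0 with a median log2 fold change of -0.36. At that unadjusted level 1997 of all 12873 tested genes were higher and 1027 lower. The 10 include Oxa1l (log2 fold change -0.50), a membrane insertase and not a ribosomal protein. DESeq2 and the limma fits gave 0 calls in this list too. Mrpl58, a peptidyl-tRNA hydrolase built into the large subunit, was at 24.0, 26.6 and 20.7 CPM in control and 11.8, 15.3 and 16.8 CPM in ACS libraries, lower in all 3 (log2 fold change -0.70 ± 0.26, SE, adjusted p = 0.149). The entry mrpl24 had -0.50 (adjusted p = 0.270). Dap3, a GTP-binding protein of the small subunit, went the other way with 9.02, 9.04 and 12.1 CPM in control against 12.4, 18.3 and 13.9 CPM and a log2 fold change of 0.56 ± 0.29 (SE, adjusted p = 0.270).

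Genes that build and run the ribosome gave no call with edgeR over all 6 libraries, and a few calls under other settings. Of 26 tested genes for ribosome assembly and rRNA modification 0 passed with edgeR (2 had an unadjusted p under 0.05), and their median log2 fold change was -0.07. Of all 12873 tested genes, 1997 were higher and 1027 lower at that unadjusted level. Mettl15, an rRNA methyltransferase of the small subunit, was at 7.07, 7.93 and 5.62 CPM in control and 2.53, 3.29 and 4.24 CPM in ACS libraries (log2 fold change -1.03 ± 0.34, SE, adjusted p = 0.114), and Mrm2 and Rpusd4, which also modify rRNA, had -1.31 (adjusted p = 0.177) and -0.64 (adjusted p = 0.253). Without ACS 3, Mrm2 was at -2.03 (adjusted p = 0.0363, edgeR) and was the 1 gene called in the list. Over all genes, 3.01% were called lower without ACS 3. Of 15 translation factors 0 passed with edgeR (3 had an unadjusted p under 0.05), with a median of -0.21. Mtfmt, which formylates the initiator tRNA, had -1.10 (adjusted p = 0.138), and Mtrf1, a release factor, -0.77 (adjusted p = 0.213), or -1.14 without ACS 3 (adjusted p = 0.0457, edgeR).

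Pde12, a nuclease that trims poly(A) tails in mitochondria, was at 10.2, 7.35 and 7.31 CPM in control and 26.4, 19.8 and 13.8 CPM in ACS libraries, above control in all 3 (log2 fold change 1.26 ± 0.32, SE, edgeR; adjusted p = 0.0616). Without ACS 3 it was at 1.47 (adjusted p = 0.0237, edgeR), where 9.72% of all genes were called higher. It was counted among the translation factors. Of 14 genes listed for mitochondrial transcription and RNA processing 0 passed with edgeR (2 had an unadjusted p under 0.05), with a median of -0.12. At that unadjusted level 1997 of all 12873 tested genes were higher and 1027 lower. Mtpap, the poly(A) polymerase of mitochondria, had 0.76 (adjusted p = 0.114) and the transcription factor Tfb2m -0.47 (adjusted p = 0.281). Clpp, a protease also counted in this list, had -0.81 (adjusted p = 0.192). DESeq2 and the limma fits gave 0 calls in these lists too, except for Pde12 with DESeq2 and with quality weights, and Mtpap with quality weights, all higher.

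Some regulators of nuclear genes for mitochondrial proteins changed. Of 12 tested, 2 rose and 1 fell with edgeR (adjusted p under 0.05, where 3.43% of all genes rose and 0.707% fell). Myc, a transcription factor that activates ribosome genes, was at 3.56, 2.56 and 2.89 CPM in control and 261, 120 and 42.8 CPM in ACS 1, 2 and 3 (log2 fold change 5.55 ± 0.67, SE, adjusted p = 0.0112). Pprc1, a coactivator of the PGC-1 family, was at 26.7, 18.2 and 23.1 CPM against 116, 114 and 46.0 CPM (log2 fold change 2.02 ± 0.38, adjusted p = 0.0319). Both rose in all 3 ACS libraries, with ACS 3 the lowest of them. Neutrophil markers (362, 24.9 and 80.4 CPM in ACS 1, 2 and 3) were highest in ACS 1, as Myc and Pprc1 were. Among the ACS libraries the markers were lowest in ACS 2, whereas Myc and Pprc1 were lowest in ACS 3. The part of the markers in the result was not tested.

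Esrrb, an orphan nuclear receptor, fell from 56 counts over the 3 control libraries to 2 over the 3 ACS libraries, a ratio of 0.0486 scaled for depth (95% exact interval 0.00575 to 0.184, covering counting error only; adjusted p = 0.0375, edgeR). None of the 3 passed when any 1 control library was left out, with adjusted p from 0.0740 to 0.187, and Pprc1 and Esrrb also lost the call without ACS 2 (0.0658 and 0.0874). The factors whose motifs were searched were not called: Nrf1 had a log2 fold change of 0.79, Gabpa 0.33 and Yy1 0.22. Ppargc1b, another PGC-1 family coactivator, had -1.79 (adjusted p = 0.0590, edgeR), and was called lower without ACS 3 (adjusted p = 0.00634), with library totals, and by DESeq2, limma-voom with quality weights and limma on log2(FPKM + 1). Ppargc1a, the founding member of that family, had 1.21 (adjusted p = 0.120), and was called higher without ACS 1 (adjusted p = 0.0205) and by limma-voom with quality weights. Gabpb1, a subunit of GABP, had 1.45 (adjusted p = 0.127) and was called higher without ACS 3 (adjusted p = 0.0115). Without ACS 3, edgeR called 9.72% of all genes higher and 3.01% lower. Myc was called by all 5 tools, and Pprc1 and Esrrb by all but limma on log2(FPKM + 1). That fit kept 11 of the regulators, against 12 in edgeR. A gene with counts as low as those of Esrrb may not have been tested in it.

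The genes sit between other gene sets of the cell. Nuclear-encoded subunits of the respiratory chain and ATP synthase (71 tested) had a median log2 fold change of -0.56, with 71 of 71 below 0 and 25 with ACS lower than every control (35.2%, against 14.8% of all tested genes), yet 0 passed with edgeR (4 had an unadjusted p under 0.05). Sdhb, the iron-sulphur subunit of succinate dehydrogenase, had -0.77 (adjusted p = 0.171). Cytosolic ribosomal proteins (69 tested) had a median of 0.06, with 9 higher (13.0%, against 16.7% of all tested genes) and 0 lower (against 14.8%) in every ACS library than in control, and 0 passed with edgeR (4 had an unadjusted p under 0.05), while DESeq2 called 3 higher (Rpl3, Rps14 and Rpl13, where 8.97% of all genes were higher), limma-voom with quality weights Rpl3 and Rps14, and limma on log2(FPKM + 1) Rps14. The 13 mRNAs of the mitochondrial chromosome, which mitochondrial ribosomes translate, had a median of 2.08, and 0 passed with edgeR (3 had an unadjusted p under 0.05). Of all 12873 tested genes, 1997 were higher and 1027 lower at that unadjusted level. DESeq2 and the limma fits called 0 of the respiratory-chain genes and 0 of the mitochondrial mRNAs. Without ACS 3, edgeR called 3 respiratory-chain genes lower (Cox8b, Cox6b1 and Atp5j), 4 cytosolic ribosomal protein genes higher (Rps19, Rpl3, Rps14 and Rpl9) and Mt-nd4 higher, where 9.72% of all genes were called higher and 3.01% lower. Rps19, at 20 counts or fewer in every library, did not pass the filter on low counts over all 6 libraries. Of 90 cytosolic ribosomal protein entries 69 passed it. How reads that match more than 1 place were counted is not given, so low counts in this set are uncertain. The per-library medians of the 13 mitochondrial mRNAs were 3.54 in ACS 1 and -0.64 and -0.18 in ACS 2 and 3.

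The per-library medians show where the sets part. In ACS 1, respiratory-chain genes lay at -1.38, mitochondrial ribosomal protein genes at -0.93 and cytosolic ribosomal protein genes at -0.22. In ACS 2 the 3 values were -0.57, -0.39 and -0.12, and in ACS 3 they were -0.09, 0.03 and 0.37. The order of the 3 sets was the same in each ACS library. It was also the same in control 2 (0.0090, 0.0518 and 0.0528) and control 3 (-0.04, 0.01 and 0.14). Control 1 had the reverse order (0.03, -0.02 and -0.20), so the order was not particular to ACS. ACS 1, with the lowest values for nuclear genes, had 43.4% of counts on the mitochondrial chromosome, and the part of that share in the result was not tested.

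**Figure D5:**
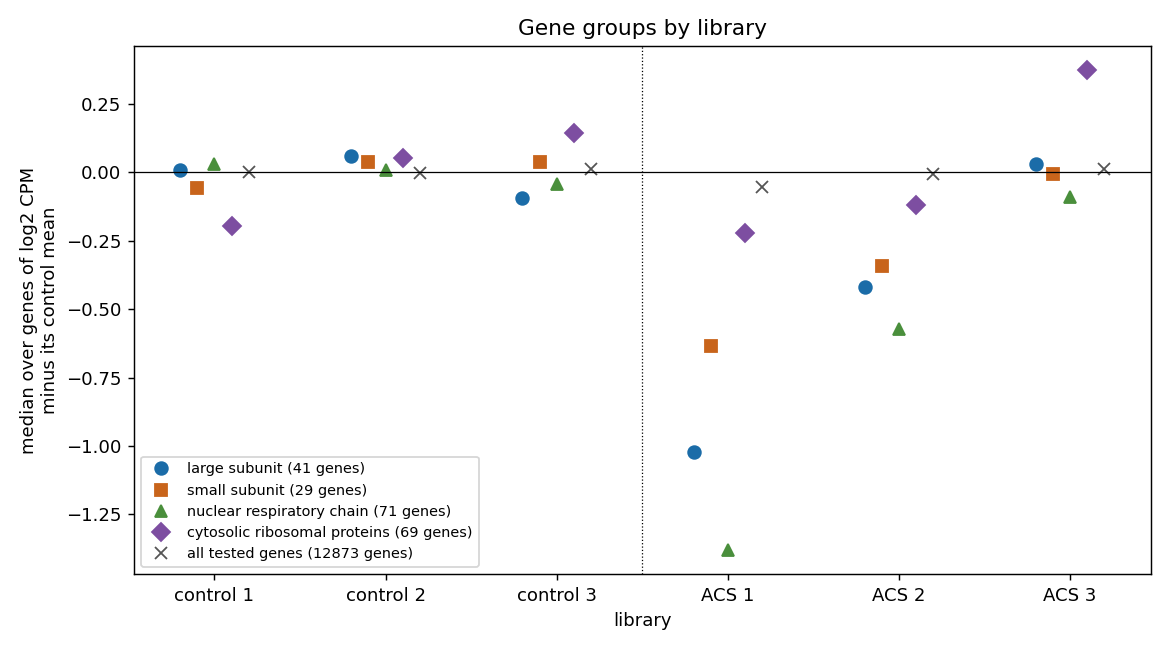
Median over the genes of each set of log2 CPM minus its control mean in the 6 libraries, for large- and small-subunit mitochondrial ribosomal proteins, nuclear respiratory-chain genes, cytosolic ribosomal proteins and all tested genes. In ACS 1 the large subunit lies at -1.02 and the small at -0.64, and in ACS 3 they are at 0.03 and -0.01.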

How the data were processed

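Ribosomal-RNA-depleted RNA of rat muscle was sequenced in 6 libraries, 3 per group, and groups came from sample titles. The members and lists were chosen with earlier results of these data known. Counts of reads per gene, as whole numbers, and FPKM were deposited in 1 table. Per the submitters' processing notes, HISAT2 2.0.4 and StringTie 1.3.0 were used with the rat build Rnor 6.0. Neither the tool that counted the reads nor its strand setting is stated there. The authors' FPKM equalled the count over 1 gene length and the column total, within 0.1%, in all 8093 genes checked.

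Totals were 14340865 to 21003928 counts. Genes were kept with filterByExpr (minimum count 10, total 15), scaled with TMM and tested with the quasi-likelihood test of edgeR 4.0.16 (R 4.3.3), adjusted by Benjamini-Hochberg over 12873 genes at 0.05. The common biological coefficient of variation was 0.381. SEs come from the F statistic. SDs cover 3 libraries, and permutation tests used log2(CPM + 0.5). DESeq2 1.42.0 and limma 3.58.1 (voom, voom with quality weights, and log2(FPKM + 1) for genes at 1 FPKM or more in 3 libraries) were alternatives. The tests were tried on simulated data.

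The genes named are members past the threshold, the 6 highest in control FPKM, the 5 largest increases and decreases of each subunit, the Mrps18 paralogues, members left out by the filter, and up to 3 of each other list. Nrf1, Gabpa, Gabpb1, Yy1, Ppargc1a, Ppargc1b, Mrps27, Rps19, Rpl9, Cox8b, Cox6b1, Atp5j, Mt-nd4, Mrpl38, Mrpl39, Mrps5, Mrps6, Mrpl18, Mrpl48, Rpl3, Rps14, Rpl13, Oxa1l and the neighbours of Mrpl41 were named after their values were seen. Subunit and origin were assigned by hand from general knowledge. Libraries differed beyond sampling noise in every pair (chi-square per degree of freedom 40.8 to 777).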

Additional observations from a re-analysis of the deposited data

How the results depend on the processing

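The median below that of all genes and the lack of lower calls rest on 3 libraries a group, with ACS 1 and ACS 3 pulling in opposite directions. Genes with few counts, such as Mrpl55 with 16 in ACS 1, are limited by depth. The number of mitochondrial ribosomal protein genes called higher was 0 with edgeR and 1 (Mrpl41) with DESeq2, with voom and quality weights, with no filter, and without both libraries whose description holds ji (control 3 and ACS 3). With 1 library left out it ranged from 0 to 1, and the number called lower from 0 to 3. The latter counts Mrps36, which is not a protein of the ribosome. All other settings gave 0 and 0.

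Replicate numbers showed no clear pairing of the samples: deviations of same-numbered libraries correlated at -0.06, 0.01 and 0.04. Control 3 and ACS 3, whose descriptions hold ji, correlated best with each other (0.04), and the other libraries did not correlate best with their own number. With 3 libraries a group, correlations this weak cannot exclude a pairing. With the replicate block, 0 genes were higher and 0 lower, and the members' median was -0.42. 

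The difference of the large over small log2 ratio (0.05) ranged from 0.0248 to 0.0691 with 1 library left out. It was -0.0776 with the mean log2 CPM, 0.204 with summed FPKM and -0.14 without Mrpl41, the last chosen after seeing the data, as were the medians of the gene sets.

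Of 504 alternative values for the 28 named genes tested, 443 kept their direction and side of the threshold, 6 passed it only under the alternative, and 55 turned sign, in 11 genes. The smallest adjusted p among the turned values was 0.440, so none was called. With library totals the log2 fold changes were -0.19 for Mrpl20, -0.0544 for Mrpl46, -0.29 for Mrpl47, -0.32 for Mrps10, -0.21 for Mrps17, -0.25 for Mrps18b, -0.16 for Mrps25 and -0.27 for Mrps31. With log2(FPKM + 1) they were -0.18, -0.0409, -0.28, -0.28, -0.19, -0.27, -0.19 and -0.25 in the same order. With quality weights Mrps10 was -0.0706, Mrps18a 0.19, Mrps25 -0.11 and Mrps31 -0.0978, and with voom Mrps10 was -0.0023. With no filter Mrpl47 was -0.0297, Mrps10 -0.0235 and Mrps18b -0.0144, and without both ji libraries Mrpl47 was -0.18, Mrps18b -0.0681 and Mrps31 -0.0255. Mrpl47 was -0.0077 with DESeq2 and -0.0185 with TMM without mitochondrial and haemoglobin genes, where Mrps18b was -0.0028. With 1 library left out the values ranged from -0.12 to 0.35 for Mrpl20, -0.71 to 0.14 for Mrpl27, -0.19 to 0.14 for Mrpl47, -0.45 to 0.22 for Mrpl54 and -0.12 to 0.0876 for Mrps10. They ranged from -0.0422 to 0.25 for Mrps17, -0.47 to 0.27 for Mrps18a, -0.29 to 0.28 for Mrps18b, -0.0845 to 0.39 for Mrps25 and -0.0904 to 0.19 for Mrps31. The cause of these changes was not tested.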
